A study of Mus musculus with 12 samples.

Results

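The lung and the terminal ileum of the normally reared 14-day-old mouse were compared gene by gene. The 6 arrays used, of 12 in the series, are all those labelled normoxia, 3 with the tissue characteristic lung and 3 with ileum. All were hybridised with RNA from C57BL/6 mice (C57BL/6 J in the study's methods) at 14 days of age that had breathed room air, with 21% oxygen, from day 3 to day 14, and no allele, transgene or drug is named for either group. RNA from each organ was measured on a 1-colour Illumina bead array with biotin label, so every value is the brightness of a probe in a whole piece of organ. The pups came from litters that were pooled and then divided between room air and oxygen. Neither the labels nor the methods tell if the 3 arrays of an organ stand for separate pups, or if lung and ileum of one number belong to one pup, so the p-values measure the spread between these arrays, which may be technical. The labels place the lung RNA in the right lung, whereas the methods of the study name the left lower lobe. All 6 arrays also carry the source name lung. The tissue characteristic was therefore checked against defining markers, 9 of lung epithelium and 10 of ileum. The 9 lung markers had a mean normalized log2 intensity of 13.05 to 13.18 on the arrays with the characteristic lung and of 4.67 to 4.91 on those with ileum. The 8 ileum markers that were measurable had means of 11.84 to 12.22 on the ileum arrays and 4.95 to 4.98 on the lung arrays. The bile acid importer Slc10a2 and the fatty acid carrier Fabp2, also ileal markers, have probes on the array that were detected on 0 of the 6 arrays.

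At this age the mouse lung is still subdividing its airspaces. Septa that carry elastic fibres and a double capillary bed grow into the air sacs, type 2 cells make surfactant, the lipid and protein film that lowers surface tension, and flat type 1 cells form the surface for gas exchange. The ileum of the suckling mouse takes up milk fat and whole milk proteins, recovers bile acids, and is lined by absorptive enterocytes between mucus-producing goblet cells, with stem cells and the antimicrobial Paneth cells at the base of the crypts. Before weaning, enterocytes digest milk sugar with lactase and carry an endocytic apparatus for milk proteins. Enzymes for plant and table sugars replace these as solid food is taken.

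Most genes differed between the organs, and the largest differences were in products of the specialised epithelia. Of 11622 genes detected on at least 3 of the 6 arrays, 7412 (63.8%) were called, which means an adjusted p under 0.05 in limma with Benjamini-Hochberg adjustment over all genes tested. Higher values in lung were found for 3867 genes (33.3%) and higher values in ileum for 3545 (30.5%). With a change of at least 2-fold as well, 3974 genes (34.2%) were called, of which 2107 genes (18.1%) were higher in lung and 1867 (16.1%) in ileum. At 16-fold or more 399 genes (3.43%) were called, with 132 genes (1.14%) higher in lung and 267 (2.3%) in ileum. This balance depended on the detection filter. Among genes detected on all 6 arrays it was 54 in lung and 50 in ileum, and the 33.1% higher in lung became 57.6% to 58.1% with 1 ileum array left out and 19.8% to 21.1% with 1 lung array left out, under the same filter of 3 arrays. The 3 lung values lay wholly apart from the 3 ileum values for 8010 genes (68.9%), with lung higher for 4199 (36.1%) and ileum higher for 3811 (32.8%). Arrays of one organ correlated at r = 0.99 to 0.992 for lung and 0.984 to 0.99 for ileum across all probes of the array, undetected ones included, and arrays of different organs at 0.873 to 0.883. Between 19853 and 20135 probes were detected on each lung array and between 19297 and 19929 on each ileum array, and mean raw intensity ranged from 455.2 to 494.6 in lung and from 463.6 to 480.8 in ileum.

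Detection bears on these counts. A gene seen in one organ only could pass the filter on low values through that organ alone, so that it had to differ. There were 508 such genes for lung and 580 for ileum, detected on all 3 arrays of that organ and on none of the other. Among the 9222 genes detected on all 6 arrays, which could be called in either direction, 5717 (62%) were called, with higher values in lung for 33% of the 9222 and in ileum for 29%. In this group the 95% interval of the difference lay within 1.5-fold for 2012 genes (21.8%) and within 2-fold for 4865 (52.8%), which bounds how far the organs can differ in these genes on this scale. Of the 267 genes at least 16-fold higher in ileum, 175 were detected on 0 of the 3 lung arrays, and of the 132 for lung, 61 were detected on 0 of the 3 ileum arrays. All values are on a normalized log2 scale with a top near 14.8, where a gene below detection reads about 4.7. For a gene detected on no array of one organ only a lower bound of the ratio is given, as "at least". It sets the mean of the brighter organ against the mean, over the dimmer arrays, of the higher of the gene's own signal and the lowest signal of any detected probe, 5.22 to 5.32. The same bound is given for a gene that some arrays of the dimmer organ detected if its mean there lay below the lowest signals. These bounds depend on the background correction, and near the top of the scale a ratio can be understated.

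**Figure D1:**
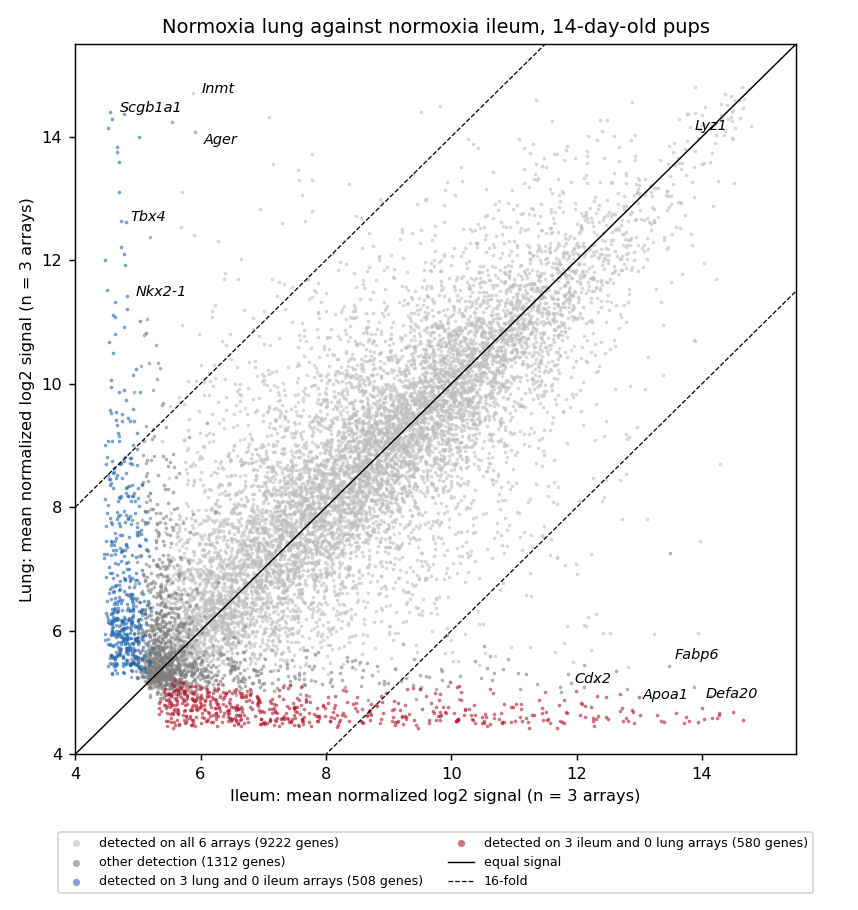
Normalized log2 intensity of the 11622 tested genes in ileum (horizontal axis, mean of 3 arrays) and lung (vertical axis, mean of 3 arrays), with equal signal as a solid line and 16-fold as dashed lines. The 508 genes detected on the 3 lung arrays and no ileum array (blue) and the 580 of the opposite kind (red) lie along the edges, and the 9222 detected on all 6 arrays (light grey) spread around the line of equal signal.

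In lung the genes farthest above ileum were those of club cells and alveolar epithelium. Scgb1a1, the secretory protein of the airway club cell, gave log2 values of 14.43, 14.44 and 14.33 on lung replicates 1, 2 and 3 and 4.52, 4.62 and 4.55 on the ileum arrays, at least 554-fold higher (adjusted p = 1.62e-10). Cyp2f2, a P450 enzyme of the same cells, read 14.02, 14.07 and 14.35 in lung and 4.47, 4.51 and 4.59 in ileum, at least 465-fold higher. The surfactant proteins followed. Sftpd and Sftpc were at least 515-fold and 543-fold higher in lung, Sftpb at least 316-fold and Sftpa1 at least 105-fold. The same group of 20 genes held Cxcl15, a chemokine of mouse lung epithelium (at least 353-fold), the chitinase-like protein Chil1 (at least 420-fold), the SEC14-like lipid-binding protein Sec14l3 (at least 376-fold) and the water channel Aqp5 (at least 160-fold). It also held the tight junction protein Cldn18 of alveolar cells (at least 225-fold) and the T-box factor Tbx4 of lung mesenchyme (at least 163-fold). Inmt, an indolethylamine methyltransferase, was detected on all 6 arrays, at 14.77, 14.67 and 14.68 in lung and 5.85, 5.77 and 6.01 in ileum. Its difference of 8.83 ± 0.13 (SE) on the log2 scale, or 455-fold, was the largest in lung among genes detected on every array, with lung values near the top of the scale. The hemoglobin scavenger Hp (169-fold) and the secreted protease inhibitor-like Wfdc2 (149-fold) were also detected on all 6 arrays. Cbr2, a carbonyl reductase of club cells (415-fold), and Ager, the receptor for advanced glycation end products that marks type 1 cells (287-fold), were detected on 2 ileum arrays, and the membrane mucin Muc1 (at least 136-fold) on 1. Clic3, a chloride intracellular channel protein (at least 121-fold), and Lgi3, a leucine-rich repeat protein (at least 112-fold), completed the 20.

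In ileum the leading genes were antimicrobial peptides, apolipoproteins, mucus components and bile acid exporters. Defa20, an α-defensin of Paneth cells, read 14.66, 14.64 and 14.66 on the ileum arrays and 4.57, 4.51 and 4.61 on the lung arrays, at least 685-fold higher (adjusted p = 1.62e-10). The further α-defensins Defa26 and Defa3 were at least 526-fold and 433-fold higher, and Reg3b, a bactericidal C-type lectin, at least 523-fold. Probes for α-defensins may pick up RNA of near-identical copies, so single members are uncertain. Guanylin (Guca2a), the peptide that stimulates intestinal fluid secretion, read 14.45, 14.55 and 14.48 in ileum and 4.86, 4.57 and 4.60 in lung, at least 614-fold higher, and uroguanylin (Guca2b) was at least 220-fold higher. Apoa1 and Apoa4, the apolipoproteins of HDL and chylomicrons, were at least 484-fold and 376-fold higher. Of the mucus and brush border genes, Cdhr5, which links the tips of microvilli, was at least 444-fold higher, the membrane mucin Muc13 at least 415-fold, the goblet cell lectin Zg16 at least 355-fold, the trefoil peptide Tff3 at least 206-fold, and the gel-forming mucin Muc2, detected on 1 lung array, at least 393-fold. Slc51a and Slc51b, the partner subunits of the basolateral bile acid exporter, were at least 326-fold and 263-fold higher. Also among the 20 were Clca4b of the chloride channel regulator family (at least 511-fold), the acute-phase protein Saa1 (at least 365-fold), the proline-rich acidic protein Prap1 (at least 285-fold), the mucosal glycoprotein Dmbt1 (at least 275-fold) and the trypsin inhibitor Spink1, which was detected on 1 lung array and was at least 461-fold higher. The size for Saa1, a gene with 2 tested probes, depended on the processing. Its log2 difference ranged from -9.63 to -4.24 over the alternatives.

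Promoter windows of 6 of these genes are shown because they carry letter matches for HNF4, NKX2-1 or GATA factors. They were picked after the matches were known. Windows were read for 29 of the leading genes, 32 windows in all, and 9 windows, each of a different gene, held a match for a factor assigned to the gene's own organ. Besides the 6 shown these were those of Prap1, Cxcl15 and Muc1, and the other 23 windows held none, among them another window of Muc13. Matches for factors assigned to the other organ were not counted here, such as 2 GATA matches in a window of the lung gene Cldn18. Each window runs from 250 bases before to 50 bases after a transcript start in RefSeq (build GRCm38.p6, plus strand, 5′ to 3′), and capitals mark the motif named for that gene. They were searched on both strands, with the letters CTCAAG for NKX2-1, the factor of lung epithelium. The letters for HNF4, a nuclear receptor of the gut and liver, were CAAAGTNCA. The zinc-finger GATA factors, named for their core letters, were searched as AGATAA and assigned to ileum. Gata6, described below, was measurable in both organs, and Gata4 was not among the genes tested. Apoa4, chr9:46240594-46240893, holds an HNF4 match 182 bases before the start. Muc13, chr16:33794239-33794538, holds one on the reverse strand 186 bases before. Guca2a, chr4:119637482-119637781, and Muc2, chr7:141690090-141690389, each hold 2 GATA matches, at 144 and 120 bases and at 169 and 159 bases. Sftpb, chr6:72304360-72304659, holds NKX2-1 matches 100 and 15 bases before the start, and Sftpa1, chr14:41131538-41131837, 1 at 166 bases.
Apoa4: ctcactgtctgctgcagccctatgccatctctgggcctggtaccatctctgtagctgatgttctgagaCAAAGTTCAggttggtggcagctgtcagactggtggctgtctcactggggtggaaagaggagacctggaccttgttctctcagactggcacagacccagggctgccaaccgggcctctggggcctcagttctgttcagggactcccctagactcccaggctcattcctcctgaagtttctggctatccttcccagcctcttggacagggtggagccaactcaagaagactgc
Muc13: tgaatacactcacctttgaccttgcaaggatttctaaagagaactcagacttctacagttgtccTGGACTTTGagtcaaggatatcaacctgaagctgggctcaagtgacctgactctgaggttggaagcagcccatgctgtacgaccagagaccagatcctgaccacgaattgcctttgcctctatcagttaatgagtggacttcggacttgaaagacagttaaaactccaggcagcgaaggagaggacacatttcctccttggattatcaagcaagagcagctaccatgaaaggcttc
Guca2a: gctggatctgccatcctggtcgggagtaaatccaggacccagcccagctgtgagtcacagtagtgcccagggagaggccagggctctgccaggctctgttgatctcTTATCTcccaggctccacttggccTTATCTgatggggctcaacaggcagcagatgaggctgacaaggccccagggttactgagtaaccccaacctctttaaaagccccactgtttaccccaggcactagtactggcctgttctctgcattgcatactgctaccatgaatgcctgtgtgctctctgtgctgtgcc
Muc2: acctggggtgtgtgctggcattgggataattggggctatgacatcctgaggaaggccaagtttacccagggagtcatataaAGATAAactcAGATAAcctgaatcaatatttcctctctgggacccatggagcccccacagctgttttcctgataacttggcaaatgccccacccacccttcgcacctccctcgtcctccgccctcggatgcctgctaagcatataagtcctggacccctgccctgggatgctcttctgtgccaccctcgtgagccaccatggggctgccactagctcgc
Sftpb: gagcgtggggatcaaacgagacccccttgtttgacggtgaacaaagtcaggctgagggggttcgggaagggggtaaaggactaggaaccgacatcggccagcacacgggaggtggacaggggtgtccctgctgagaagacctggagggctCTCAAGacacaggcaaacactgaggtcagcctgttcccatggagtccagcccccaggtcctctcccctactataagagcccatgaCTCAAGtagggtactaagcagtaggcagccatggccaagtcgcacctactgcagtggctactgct
Sftpa1: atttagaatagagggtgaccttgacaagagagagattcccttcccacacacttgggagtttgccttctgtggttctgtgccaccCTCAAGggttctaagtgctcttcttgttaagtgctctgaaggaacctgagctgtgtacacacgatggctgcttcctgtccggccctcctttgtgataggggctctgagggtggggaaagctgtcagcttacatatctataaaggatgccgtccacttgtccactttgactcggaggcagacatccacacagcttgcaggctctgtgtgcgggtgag
The Apoa4 and Muc13 windows also hold the letters of the NKX2-1 motif and the Guca2a window those of FOXA, TGTTTAC, left in lower case. The capitalised matches do not overlap.

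Windows were found for 9364 of the 11622 tested genes, 11997 windows in all. The HNF4 letters were in 143 of these (1.19%), in 18 of the 247 windows (7.29%) of the genes at least 16-fold higher in ileum and in 2 of the 113 windows (1.77%) of those at least 16-fold higher in lung. The GATA letters were in 6.89% of all windows, 14.2% of the ileum windows and 8.85% of the lung windows. The NKX2-1 letters were common everywhere, in 14.1% of all windows, 37 of the 247 ileum windows and 18.6% of the lung windows. FOXA was in 2.74%, 3.64% and 3.54%, HNF1 in 0.233%, 2.02% and 1.77%, and CDX (CCATAAA) in 1.88%, 3.24% and 5.31%. The median GC content was 60.0% over all windows, 53.0% in the ileum set and 56.3% in the lung set, so the sets also differ in base composition. A match is a run of letters and not a measured binding site.

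Gene lists for cell types and functions of the 2 organs were then read member by member. Beside the count over all members tested, the lists of the organs are described over their members detected on all 6 arrays, to be read against the 33% higher in lung and 29% higher in ileum among all such genes. In these whole-organ samples fewer cells of a type and less RNA per cell cannot be told apart.

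**Figure D2:**
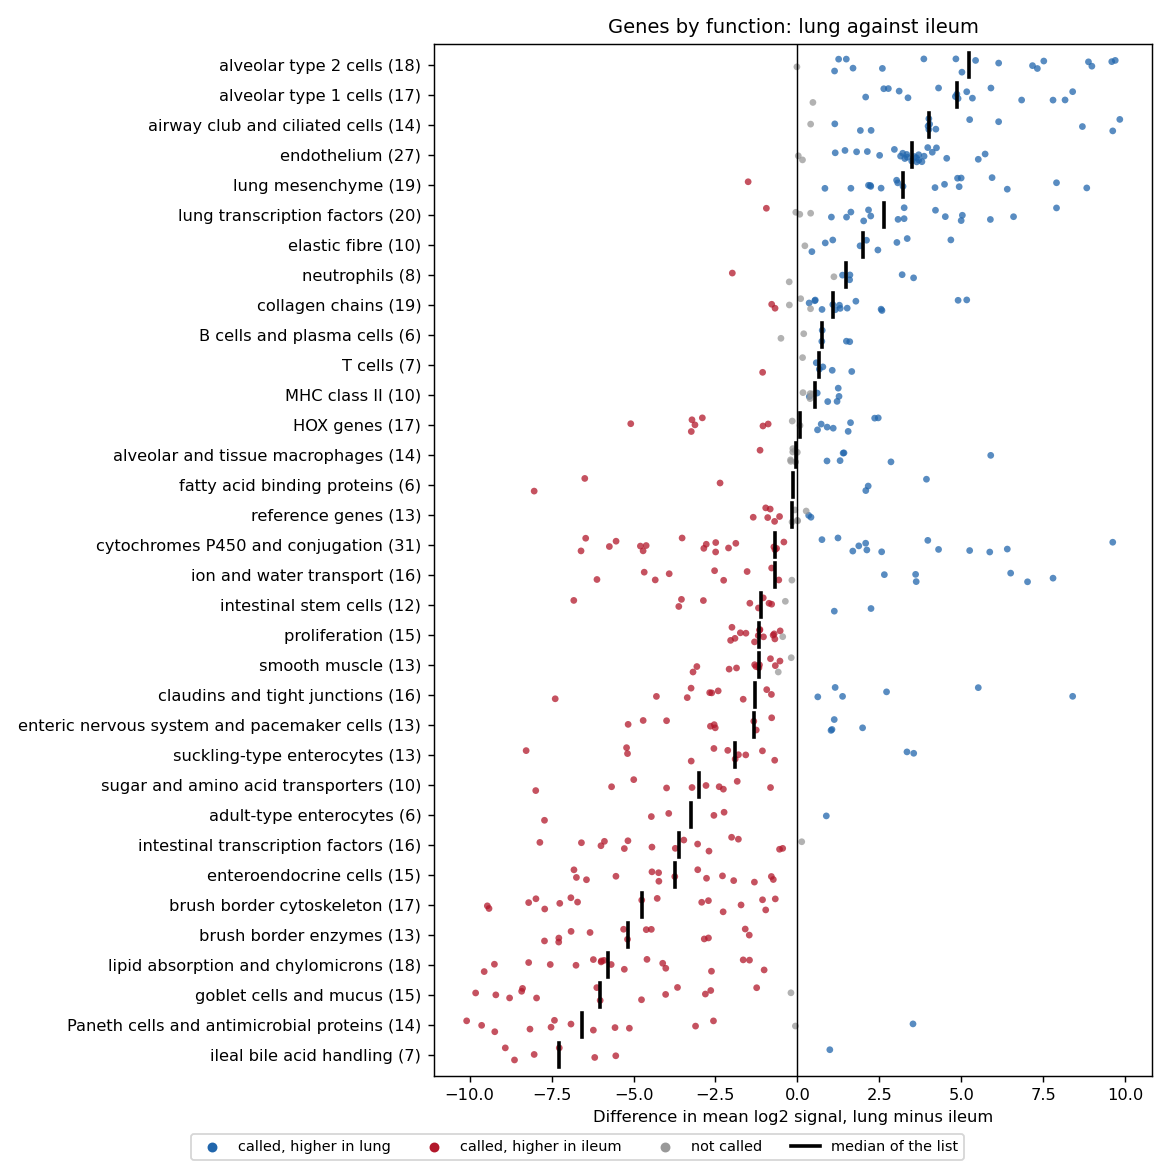
Log2 difference (lung minus ileum, horizontal axis) of every tested member (points, coloured by call) of the organ gene lists (rows, members tested in brackets), with the median of each list as a black bar. Alveolar type 2 and type 1 lists have medians of 5.23 and 4.87, lipid absorption and Paneth lists medians of -5.79 and -6.57, and macrophage and HOX lists medians near 0 with members on both sides.

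The alveolar lists were higher in lung. Of 18 type 2 genes tested, 17 were called higher in lung, none higher in ileum, and the mean of the list was 11.86 to 11.9 on lung and 6.67 to 6.8 on ileum arrays. Of its 9 members detected on all 6 arrays, 8 were called, with a median difference of 1.7 on the log2 scale. Abca3, the transporter that loads surfactant lipid into lamellar bodies, read 13.13, 13.25 and 13.05 in lung and 10.41, 10.49 and 10.75 in ileum (2.59 ± 0.14, adjusted p = 4.25e-07). Slc34a2, a phosphate carrier, differed by 1.26 ± 0.14 and Ctsh, a cathepsin that processes surfactant protein, by 1.13 ± 0.17. The lamellar body protein Lamp3 (at least 42.1-fold) and Lpcat1, which makes surfactant phospholipid (at least 24.0-fold), were detected only in lung. Cebpa, a transcription factor used in both organs, read 7.01, 6.83 and 7.35 in lung and 6.66, 7.06 and 7.53 in ileum and was not called (-0.01 ± 0.23, adjusted p = 0.962). For type 1 cells, 16 of 17 genes were called higher in lung, and 9 of the 10 detected on all 6 arrays, with a median of 3.24. Hopx, a homeodomain-only cofactor, read 13.31, 13.32 and 13.21 in lung and 9.99, 10.03 and 10.51 in ileum (3.10 ± 0.16). Podoplanin (Pdpn) differed by 2.64 ± 0.13, caveolin (Cav1) by 2.08 ± 0.14 and the vascular growth factor Vegfa by 2.77 ± 0.19. Akap5, a kinase anchoring protein, was 115-fold higher in lung. Clic5, an intracellular chloride channel protein tied to actin, was not called (0.47 ± 0.27, adjusted p = 0.159).

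Airway genes were higher in lung but differed between the lung arrays. Of 14 club and ciliated cell genes tested, 13 were called higher in lung, and all 3 of those detected on all 6 arrays, the retinal dehydrogenase Aldh1a1 (2.25 ± 0.20), the tubulin-binding Tppp3 (1.92 ± 0.20) and the radial spoke protein Rsph1 (4.03 ± 0.35). Several genes of the list varied between lung arrays. Dynlrb2, a dynein light chain, read 10.79, 10.26 and 11.70 on lung replicates 1, 2 and 3, Tekt1, a protein of ciliary microtubules, 8.39, 8.02 and 9.68, and Cdhr3, a cadherin of ciliated cells, 8.69, 8.17 and 9.56. Each was lowest on replicate 2 and highest on replicate 3, and each lay above its 3 ileum values, all of which were under 5.0. Scgb3a1, a secretoglobin of the larger airways, spread from 5.22 on replicate 2 to 11.84 on replicate 3, with 8.83 on replicate 1, and was at least 10.2-fold higher in lung with an adjusted p of 0.0227. Its log2 difference of 4.01 became 5.71 without lung replicate 2 and 2.39 without lung replicate 3, and it was no longer called without lung replicate 1 or without any 1 of the ileum arrays. With all 6 arrays its call was lost under an ordinary linear model (adjusted p = 0.149) and under moderation with trend and robust settings (adjusted p = 0.132). The call was also lost without the detection filter (adjusted p = 0.0708). Foxj1, the master factor of ciliated cells, was not called (0.40 ± 0.37, adjusted p = 0.363).

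The same order of the lung arrays was seen in other genes, which were picked out after their values had been seen. Of 10743 genes detected on at least 2 lung arrays, 33 had a standard deviation above 1 in lung, and 27 of the 33 were lowest on lung replicate 2 and 28 highest on lung replicate 3. In ileum 5 of 10782 genes varied as much. Clca1, a secreted protein of mucous cells, read 10.94, 5.47 and 11.49 in lung, the antibacterial lectin Reg3g 6.62, 4.71 and 10.46, the trefoil peptide Tff2 9.85, 6.77 and 12.25 and lactoferrin (Ltf) 8.09, 7.68 and 11.19. Myosin and other muscle genes moved in the same order, with Myl7, the atrial myosin light chain, at 9.28, 7.51 and 10.42 and the cardiac myosin Myh6 at 9.12, 8.00 and 10.10. The chitinase-like genes differed from this order. Chil4 read 12.91, 10.22 and 10.48, and Chil3, a product of mouse macrophages, 12.65, 10.35 and 10.15, both highest on replicate 1. The mean standard deviation in lung was 0.655 for the airway list, 0.552 for the goblet list and 0.917 for the striated muscle list, against 0.128 for type 2 cells, 0.137 for type 1 cells and 0.144 for endothelium. The part of the muscle tissue or of the airway content of the pieces in these differences was not tested.

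**Figure D3:**
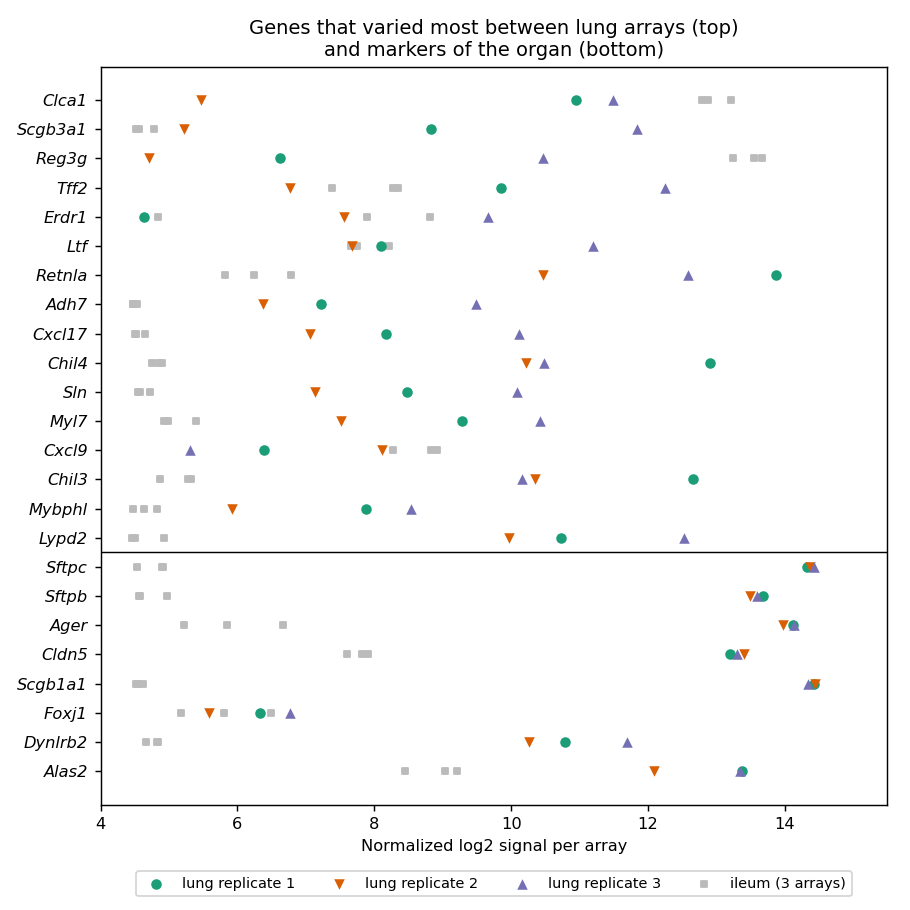
Normalized log2 intensity (horizontal axis) of single genes (rows) on lung replicates 1, 2 and 3 (coloured symbols) and the 3 ileum arrays (grey), for the genes that differed most between lung arrays and, under the line, for organ markers. Scgb3a1 runs from 5.22 on replicate 2 to 11.84 on replicate 3, Clca1, Reg3g, Tff2 and Myl7 are also lowest on replicate 2, and Sftpc and Cldn5 nearly coincide.

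Endothelial genes were higher in lung almost throughout. Of 27 tested, 25 were called higher in lung and none higher in ileum, and of the 23 detected on all 6 arrays 22 were called, with a median of 3.49. Cldn5, the claudin of endothelial junctions, read 13.20, 13.40 and 13.30 in lung and 7.61, 7.91 and 7.82 in ileum (5.52 ± 0.14, adjusted p = 2.71e-09). Tmem100, a target of endothelial BMP signalling, differed by 5.73 ± 0.18, VE-cadherin (Cdh5) by 4.24 ± 0.13, von Willebrand factor (Vwf) by 3.98 ± 0.12, Pecam1 by 3.35 ± 0.16 and the angiopoietin receptor Tek by 3.64 ± 0.14. Car4, the carbonic anhydrase on lung capillaries, read 11.37, 11.41 and 10.87 in lung and 7.47, 7.21 and 7.38 in ileum (3.87 ± 0.17). The angiotensin-converting enzyme Ace, which enterocytes also express, had a smaller difference of 1.15 ± 0.18, which fell to 0.24 (adjusted p = 0.273) as the mean of its probes. Kdr, a VEGF receptor, was near the detection limit in both organs (0.15 ± 0.20, adjusted p = 0.532), and the endothelin receptor Ednrb, also used by enteric nerve progenitors, read 11.60, 11.60 and 11.45 in lung and 11.62, 11.70 and 11.24 in ileum (0.03 ± 0.15, adjusted p = 0.895). Red cell genes were higher in lung beside them. Of 6 tested, 5 were called, among them 4 of the 5 detected on all 6 arrays (median 0.92), with a list mean of 12.39 to 13 on lung and 10.59 to 10.82 on ileum arrays. The heme synthesis enzyme Alas2 read 13.38, 12.09 and 13.35 in lung and 9.21, 8.45 and 9.03 in ileum (4.04 ± 0.35), and the anion exchanger Slc4a1 differed by 4.39 ± 0.30. Of the globin genes, Hba-a1, Hbb-bt and Hbb-bs lay close to the top of the scale. They differed by 0.92 ± 0.14, 0.33 ± 0.12 and 0.02 ± 0.12, the last of them not called. The call of Hbb-bt was lost in 14 of 23 alternatives. Hbb-bs depended on the probe. Most of its probes gave -0.08 to 0.23, but 1, at 14.41 in lung and 12.66 in ileum, gave 1.75 (adjusted p over probes 1.6e-05). The mean of its probes was called (0.33, adjusted p = 0.034). Hbb-b2 read 8.67, 6.81 and 7.70 in lung and 5.02, 5.38 and 4.95 in ileum, where 1 array detected it, at least 5.25-fold higher in lung. The part of blood content in the endothelial differences was not tested.

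Mesenchymal and matrix genes of the growing septum were higher in lung. Of 19 mesenchymal genes tested 18 were called higher in lung, and 12 of the 13 detected on all 6 arrays, with a median of 3.06. Mfap4, a microfibril-associated glycoprotein, read 14.46, 14.41 and 14.34 in lung and 9.20, 9.73 and 9.63 in ileum (4.89 ± 0.16). Limch1, an actin-associated protein, differed by 5.94 ± 0.15, Fgf10, the growth factor of branching, by 3.06 ± 0.27, Tcf21 by 2.17 ± 0.16 and the PDGF receptor Pdgfra, which marks septal myofibroblast progenitors and also villus mesenchyme, by 0.84 ± 0.18. The exception was Plin2, the lipid droplet protein of lipofibroblasts that enterocytes also use, at 8.44, 8.57 and 8.48 in lung and 9.97, 9.75 and 10.29 in ileum (-1.50 ± 0.16, adjusted p = 3.63e-05). Elastin (Eln) read 14.51, 14.54 and 14.46 in lung and 9.95, 9.79 and 9.72 in ileum, a difference of 4.68 ± 0.13 (25.7-fold, adjusted p = 4.58e-09). The enzymes that crosslink it were also higher, Loxl1 by 3.35 ± 0.16 and Lox by 2.11 ± 0.23, as were the microfibril genes Mfap2 (3.04 ± 0.15), Mfap5 (2.46 ± 0.15) and Ltbp4 (1.91 ± 0.14). All 9 elastic fibre genes detected on all 6 arrays were called, with a median of 2.11. Fbln1 had the smallest difference (0.44 ± 0.14, adjusted p = 0.0241), a call that some alternatives lost.

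Collagens split by chain. Of 19 tested, 14 were higher in lung and 2 in ileum, and of the 15 detected on all 6 arrays 11 were higher in lung and 2 in ileum (median 0.75). The chains that form the basement membrane of the alveolus and glomerulus differed most. Col4a3 read 10.24, 10.33 and 10.18 in lung and 5.28, 5.38 and 5.39 in ileum (4.90 ± 0.12, detected on 2 ileum arrays), and Col4a4 was at least 23.9-fold higher. The widespread basement membrane chains Col4a1 and Col4a2 differed by 1.78 ± 0.13 and 2.58 ± 0.13. The fibrillar chains differed less, with 1.31 ± 0.18 for Col1a1, 1.52 ± 0.17 for Col1a2 and 0.55 ± 0.19 for Col3a1 (adjusted p = 0.0295, lost under some alternatives). Col8a1 (-0.79 ± 0.20) and Col15a1 (-0.68 ± 0.18) were higher in ileum, calls that an ordinary linear model lost (adjusted p = 0.0567 and 0.0526). Col18a1 (0.10 ± 0.13, adjusted p = 0.539) and Col5a2 (0.40 ± 0.17, adjusted p = 0.072) were not called.

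The digestive apparatus of the enterocyte was higher in ileum. All 13 brush border enzymes tested and all 17 genes of the microvillus cytoskeleton were called higher in ileum, including all 5 and all 7 that were detected on all 6 arrays, whose medians were -2.84 and -2.27. Villin (Vil1), which bundles actin in the microvillus, was at least 187-fold higher. Cdhr2, the partner of Cdhr5 in the links between microvilli, read 12.70, 12.63 and 12.85 in ileum and 4.56, 5.01 and 4.67 in lung, at least 180-fold higher. Aminopeptidase N (Anpep), detected on all 6 arrays, was 39.5-fold higher in ileum (-5.30 ± 0.18). The meprin Mep1a was at least 94.5-fold higher in ileum, its partner Mep1b, which 2 lung arrays detected, 156-fold, and intestinal alkaline phosphatase Alpi at least 49.0-fold. Dpp4, a dipeptidyl peptidase that lung also expressed at 10.88 to 11.15, differed by -1.47 ± 0.13. The ezrin-binding scaffold Slc9a3r1 and the bundling protein Pls1 were also detected in lung and differed by -2.71 ± 0.18 and -4.28 ± 0.15. All 10 sugar and amino acid transporters tested were higher in ileum, including the 5 detected on all 6 arrays (median -2.79). The cystine carrier Slc7a9 was at least 175-fold higher, the neutral amino acid carrier Slc6a19 at least 43.2-fold, the glucose carrier Slc5a1 31.9-fold (-4.99 ± 0.14) and the peptide carrier Slc15a1, at 6.37, 6.80 and 6.59 in ileum, at least 2.55-fold. The glucose and fructose carriers Slc2a2 and Slc2a5 did not pass the detection filter.

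Fat absorption and bile acid recovery gave some of the largest differences. All 18 lipid genes tested were higher in ileum, including the 7 detected on all 6 arrays (median -2.62). Apoa4 read 13.81, 13.54 and 14.00 in ileum and 4.49, 4.57 and 4.57 in lung. Apob, the structural protein of chylomicrons, was at least 101-fold higher and was detected on 2 lung arrays, and Mttp, which loads lipid onto it, read 9.49, 10.43 and 10.40 in ileum and 5.39, 5.60 and 5.56 in lung (-4.59 ± 0.24). Triglyceride synthesis genes followed, with Mogat2 at least 55.9-fold, Dgat1 17.3-fold and Dgat2 16.2-fold higher. The sterol genes Abcg5, Abcg8 and Npc1l1, exporters and an importer of cholesterol, were at least 150-fold, 39.2-fold and 33.8-fold higher. Sar1b (-1.65 ± 0.13) and Acsl5 (-1.01 ± 0.15), which serve secretion and fatty acid activation in many cells, differed least. For bile acids, 6 of 7 genes tested were higher in ileum, of which 5 were detected on no lung array. The 1 member detected on all 6 arrays, Abcc3, was higher in lung. The bile acid importer Slc10a2, as given above, was detected on no array and was not tested. Fabp6, the ileal bile acid binding protein, read 13.08, 13.69 and 13.63 in ileum and 5.48, 5.08 and 5.74 in lung (262-fold, detected on 2 lung arrays). The bile acid receptor Nr1h4 was at least 115-fold higher and its target Fgf15, the hormone that curbs hepatic bile acid synthesis, at least 52.8-fold. Abcc3 is a basolateral organic anion exporter (0.99 ± 0.18, adjusted p = 0.00102).

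At 14 days genes of both the suckling and the adult enterocyte were measurable in ileum. Of 13 suckling-type genes tested 11 were higher in ileum, and 8 of the 9 detected on all 6 arrays (median -1.8). Lactase (Lct) read 9.62, 9.62 and 10.59 in ileum and 4.78, 4.74 and 4.76 in lung, at least 26.2-fold higher. The partners of milk protein endocytosis, Amn and Cubn, were at least 192-fold and 23.1-fold higher, and their adaptor Dab2 differed by -2.12 ± 0.12. Of the lysosomal genes, Neu1 differed by -3.24 ± 0.13, Lgmn by -1.90 ± 0.13 and Glb1 by -1.80 ± 0.14. The neonatal Fc receptor Fcgrt read 13.36, 13.43 and 13.39 in ileum and 12.24, 12.37 and 12.37 in lung (-1.07 ± 0.12). The oxidase Nox4 was higher in lung by 3.34 ± 0.14, and Lrp2, a large endocytic receptor that 1 ileum array detected, at least 10.9-fold. Of 6 adult-type genes tested 5 were higher in ileum, each detected on no lung array, and the 1 detected on all 6 arrays, Arg2, was higher in lung. Sucrase-isomaltase (Sis) read 12.70, 12.52 and 11.78 in ileum and 4.75, 4.56 and 4.54 in lung, at least 137-fold higher, and trehalase (Treh) 9.48, 9.18 and 8.88 in ileum, at least 15.4-fold higher. On ileum replicate 3 lactase was highest and sucrase-isomaltase and trehalase lowest. Arginase 2 (Arg2), which rises in enterocytes after weaning, read 5.54, 5.40 and 5.84 in ileum and 6.08, 7.08 and 6.26 in lung (0.88 ± 0.25, adjusted p = 0.0132, lost under some alternatives).

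Most mucus and antimicrobial genes tested were higher in ileum, many of them detected in ileum only. Of 15 goblet cell genes tested, 14 were called higher in ileum, and 3 of the 4 detected on all 6 arrays (median -3.15). Muc2 read 14.18, 13.68 and 13.75 in ileum and 4.81, 5.26 and 5.18 in lung, and Retnlb, a goblet cell antibacterial protein, 9.48, 8.56 and 7.65 in ileum, at least 10.1-fold higher. Several genes of the list rose above detection on lung replicate 3 alone, among them Ern2, a stress sensor of mucous cells, at 5.01, 4.75 and 7.52, and the goblet factor Spdef at 4.81, 4.67 and 5.92. Clca1, whose lung values are given above, had a difference of -3.66 ± 1.30 (adjusted p = 0.034). It became -1.77 without lung replicate 2 and -4.78 without lung replicate 3, and it was not called without any 1 of the ileum arrays. With all 6 arrays its call was lost under an ordinary linear model (adjusted p = 0.18) and under moderation with trend and robust settings (adjusted p = 0.162). The call was also lost without the detection filter (adjusted p = 0.0969). Of 14 Paneth and antimicrobial genes tested 12 were higher in ileum, 10 of them detected on no lung array, so that they passed the filter through ileum alone. The 3 detected on all 6 arrays split, with 1 higher in lung, 1 in ileum and 1 not called (median -0.06). Ang4, a bactericidal ribonuclease, read 11.94, 12.19 and 12.04 in ileum, at least 113-fold higher. Matrilysin (Mmp7), which activates mouse α-defensins, read 7.97, 7.18 and 7.55 in ileum, at least 5.05-fold higher, the secreted phospholipase Pla2g2a was at least 21.2-fold and intelectin (Itln1) at least 201-fold higher. Reg3g was 74.8-fold higher in ileum (-6.23 ± 1.15, adjusted p = 0.00118), with a wide spread in lung, where 2 arrays detected it. The difference became -4.98 without lung replicate 2 and -7.86 without lung replicate 3.

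The values of the lysozymes depended on the gene and the probe. Lyz2, the macrophage and type 2 cell lysozyme, read 13.90, 13.93 and 13.80 in lung and 9.46, 10.83 and 10.75 in ileum (3.53 ± 0.32, adjusted p = 1.3e-05), and its 3 probes gave 3.53, 3.55 and 1.32. Lyz1, the Paneth cell lysozyme, read 14.65, 14.68 and 14.51 in lung and 14.68, 14.68 and 14.67 in ileum on its brightest probe (-0.06 ± 0.12, adjusted p = 0.687), where all values lie near the top of the scale. Its other probes gave -0.78 and -0.61, both higher in ileum (adjusted p over probes 0.0199 and 0.0219), and the mean of its probes -0.48 (adjusted p = 0.0227). The genes are near-identical in sequence, so their probes may not tell them apart, and the Lyz1 and Lyz2 values are uncertain.

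Hormone and muscle genes of the gut wall were mostly higher in ileum, and nerve and pacemaker genes split. All 15 enteroendocrine genes tested were called higher in ileum, 11 of them detected on no lung array and 2 on all 6 arrays (median -1.34). Proglucagon (Gcg) read 11.19, 11.33 and 11.19 in ileum and 4.42, 4.38 and 4.45 in lung, at least 64.2-fold higher. Peptide YY (Pyy) was at least 52.8-fold, somatostatin (Sst) at least 28.8-fold, secretin (Sct) at least 86.4-fold and cholecystokinin (Cck) at least 7.72-fold higher. Of the 13 enteric nerve and pacemaker genes, 9 were higher in ileum, of which 7 were detected on no lung array and passed the filter through ileum alone. Of the 5 detected on all 6 arrays, 4 were higher in lung and 1 in ileum (median 1.06). The neuropeptide Vip was at least 23.5-fold higher, the receptor Ret at least 22.9-fold, the nerve filament protein Prph at least 11.0-fold and the glial factor Sox10 at least 4.76-fold. The pacemaker cell genes and the nerve gene Gap43 were higher in lung. The log2 difference of Gap43 ran from 0.74 to 1.18 over the alternatives. Kit, a receptor that mast cells and some lung capillary cells also carry, read 12.21, 12.28 and 12.11 in lung and 10.29, 10.29 and 10.05 in ileum (1.99 ± 0.13), the chloride channel Ano1, also found in airway smooth muscle, differed by 1.12 ± 0.24, and Etv1 by 1.05 ± 0.15. Of 13 smooth muscle genes 11 were higher in ileum, and 9 of the 10 detected on all 6 arrays (median -1.22). Smooth muscle myosin (Myh11) read 12.43, 12.67 and 12.30 in ileum and 9.26, 9.30 and 9.63 in lung (-3.07 ± 0.16), enteric actin (Actg2) differed by -3.19 ± 0.23 and Acta2, which lung myofibroblasts also make, by -1.26 ± 0.17. Smoothelin (Smtn) was not called (-0.19 ± 0.16, adjusted p = 0.335).

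Cell cycle and crypt genes were higher in ileum. Of 15 proliferation genes, all detected on every array, 14 were called higher in ileum with a median of -1.16. Top2a, the topoisomerase of dividing cells, read 8.90, 9.63 and 9.92 in ileum and 7.26, 7.76 and 7.43 in lung (3.99-fold, SE 0.26 on the log2 scale), Cdk1 differed by -1.91 ± 0.20 and the thymidylate synthase Tyms by -2.04 ± 0.20. Pcna was not called (-0.45 ± 0.21, adjusted p = 0.0928), and the call of Mcm3 (-0.53 ± 0.20) was lost under some alternatives. Of 12 stem cell genes tested 9 were higher in ileum, and of the 7 detected on all 6 arrays 5 were higher in ileum and 1 in lung (median -1.04). Olfm4 read 11.08, 11.78 and 11.68 in ileum, at least 77.8-fold higher, the R-spondin receptor Lgr5 7.97, 8.65 and 8.66, at least 9.15-fold higher, and the stem cell factor Ascl2 6.28, 6.33 and 6.53, at least 2.21-fold higher. Sox9, also used in lung tips, differed by -3.54 ± 0.17. Tnfrsf19 (2.25 ± 0.17) and Ephb3 (at least 1.59-fold) were higher in lung. Axin2, a general readout of Wnt signalling, read 9.95, 10.04 and 10.00 in lung and 10.08, 10.44 and 10.57 in ileum and was not called (-0.37 ± 0.15, adjusted p = 0.0635).

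The transcription factors that define the organs were split between them. Of 20 lung factors tested 16 were higher in lung and 1 in ileum, and of the 9 detected on all 6 arrays 7 were higher in lung and 1 in ileum (median 2.17). Nkx2-1, the factor of lung epithelium, read 11.66, 11.31 and 11.29 in lung and 4.64, 4.80 and 5.02 in ileum, at least 70.1-fold higher. The Iroquois genes Irx1, Irx2, Irx3 and Irx5 were at least 6.25-fold, at least 36.9-fold, 32.7-fold and at least 15.1-fold higher, and the vascular factor Klf2 differed by 3.26 ± 0.14. Foxf1 and Tbx5, factors of lung mesenchyme, differed by 2.24 ± 0.19 and by at least 2.04-fold. Foxa2 was at least 6.05-fold higher in lung, whereas its relative Foxa1 read 9.44, 9.39 and 10.01 in lung and 9.68, 9.73 and 9.58 in ileum and was not called (-0.05 ± 0.18, adjusted p = 0.831). Gata6, which both endoderm organs use, was higher in ileum at 11.01, 10.89 and 11.10 against 10.14, 9.95 and 10.07 in lung (-0.95 ± 0.13, adjusted p = 0.00019). Of 16 intestinal factors tested 15 were higher in ileum and none in lung, and 6 of the 7 detected on all 6 arrays were higher in ileum (median -2.01). Cdx2, the master factor of intestinal identity, read 12.25, 12.38 and 12.77 in ileum and 4.71, 4.61 and 4.50 in lung, at least 150-fold higher, and Cdx1 was at least 39.5-fold higher. Hnf4a read 11.73, 11.75 and 11.90 in ileum and 5.77, 5.75 and 5.87 in lung (-5.99 ± 0.12, 63.7-fold), and Hnf4g, at 6.13, 6.37 and 6.29 in ileum, was at least 2.05-fold higher. The nuclear receptor Nr1i2, which senses bile acids and drugs, was at least 19.2-fold higher. Vdr, the receptor of vitamin D, was detected on all 6 arrays, at 10.37, 10.74 and 10.82 in ileum and 7.30, 6.89 and 7.35 in lung, and differed by -3.47 ± 0.18 (-2.82 without background correction). Klf5 differed by -2.01 ± 0.15, while Klf4 (-0.55 ± 0.17) and Tcf7l2 (-0.45 ± 0.13) had small differences that some alternatives did not call. Gata4 was not among the genes tested.

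**Figure D4:**
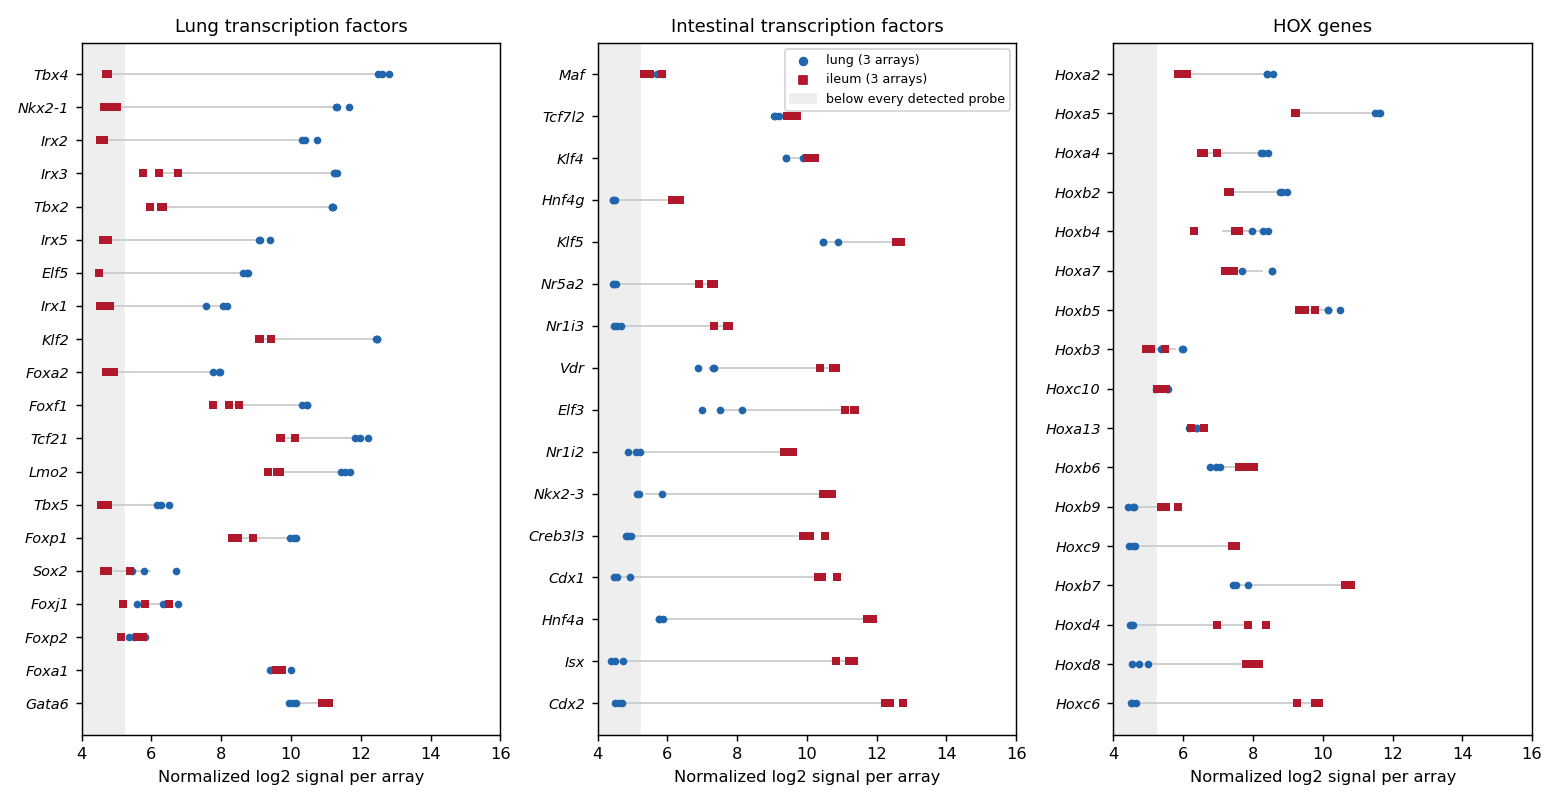
Normalized log2 intensity (horizontal axis) of lung, intestinal and HOX transcription factors (rows) on the 3 lung arrays (blue) and 3 ileum arrays (red), with a grey line between the means and shading below every detected probe. Nkx2-1 and Tbx4 lie above 11 in lung and near 4.7 in ileum, Cdx2 and Hnf4a lie above 11 in ileum, and Foxa1 overlaps between the organs.

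The called HOX genes, which mark position along the body axis, divided by cluster, and within the B cluster by number. Of 38 on the array 17 were tested, 8 were higher in lung, 7 in ileum and 2 in neither. The 2 not called were Hoxa13 and Hoxc10, with differences of -0.29 to -0.01 and -0.02 to 0.19 over the alternatives. Of the 7, 5 were detected on no lung array and passed the filter through ileum alone. Of the 10 detected on all 6 arrays, 7 were higher in lung and 2 in ileum (median 1.0). Those higher in lung all belonged to the A and B clusters, with Hoxa5, needed for lung formation in mice, at 11.64, 11.48 and 11.61 in lung and 9.23, 9.20 and 9.23 in ileum (2.36 ± 0.12, adjusted p = 3.02e-07), Hoxa2 (2.47 ± 0.14), Hoxa4 (1.62 ± 0.16), Hoxa7 (0.91 ± 0.24), Hoxb2 (1.55 ± 0.12), Hoxb3 (0.61 ± 0.21, lost under some alternatives), Hoxb4 (1.09 ± 0.32) and Hoxb5 (0.73 ± 0.17). With an ordinary linear model the calls of Hoxa7 (adjusted p = 0.0681) and Hoxb4 (adjusted p = 0.102) were lost too. Within the B cluster the difference turned between Hoxb5 and Hoxb6. Hoxb6 (-0.89 ± 0.15), Hoxb7, at 10.72, 10.81 and 10.64 in ileum and 7.52, 7.85 and 7.42 in lung (-3.13 ± 0.15), and Hoxb9 (at least 1.26-fold) were higher in ileum. The called genes of the C and D clusters were all higher in ileum and detected on no lung array, with Hoxc6 at 9.90, 9.78 and 9.26 (at least 21.3-fold), Hoxc9 at least 4.63-fold, Hoxd4 at least 5.67-fold and Hoxd8 at least 6.76-fold.

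Junction and ion transport genes differed in kind. All 16 claudin and tight junction genes tested were called, 6 higher in lung and 10 in ileum, and over the 14 detected on all 6 arrays 5 and 9 (median -1.3). Cldn18 and Cldn5 were the lung claudins described above, and Cldn10 (2.72 ± 0.20) and Cldn1 (1.38 ± 0.19) were also higher in lung. Cldn2, which forms a cation and water pore, read 12.26, 12.41 and 12.32 in ileum and 5.11, 4.67 and 5.04 in lung, at least 137-fold higher, and Cldn15, a sodium pore of the small intestine, 11.60, 11.45 and 11.60 in ileum against 8.38, 7.75 and 8.43 in lung (-3.36 ± 0.19). Cldn4 differed by -4.30 ± 0.26, Cldn7 by -2.62 ± 0.14, occludin (Ocln) by -1.65 ± 0.14 and Cldn3 by -0.94 ± 0.17. Tjp1, the scaffold ZO-1, was higher in lung (1.15 ± 0.16) and its relative Tjp3 in ileum (-2.42 ± 0.22). Of 16 ion and water transport genes 6 were higher in lung and 9 in ileum, and of the 8 detected on all 6 arrays 3 and 5 (median -0.68). The subunits of the epithelial sodium channel, which clears fluid from the airspace, were all higher in lung. Scnn1g read 11.60, 11.55 and 11.42 in lung and 4.53, 4.43 and 4.54 in ileum (at least 75.5-fold), Scnn1b was at least 57.0-fold higher and Scnn1a differed by 3.61 ± 0.19. Ileum had higher levels of sodium-proton exchangers, with Slc9a3 at 11.02, 10.77 and 9.94 (at least 40.6-fold) and Slc9a2 at least 17.2-fold higher, and of the anion exchangers Slc26a3 (at least 11.2-fold) and Slc26a6 (20.2-fold). The chloride channel Cftr read 10.29, 9.41 and 9.49 in ileum and 7.34, 7.08 and 7.20 in lung (-2.53 ± 0.23). Among water channels, Aqp1, found in capillaries, was higher in lung (2.65 ± 0.14), Aqp4 in ileum (-1.53 ± 0.29), and Aqp3 was not called (-0.17 ± 0.40, adjusted p = 0.73).

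**Figure D5:**
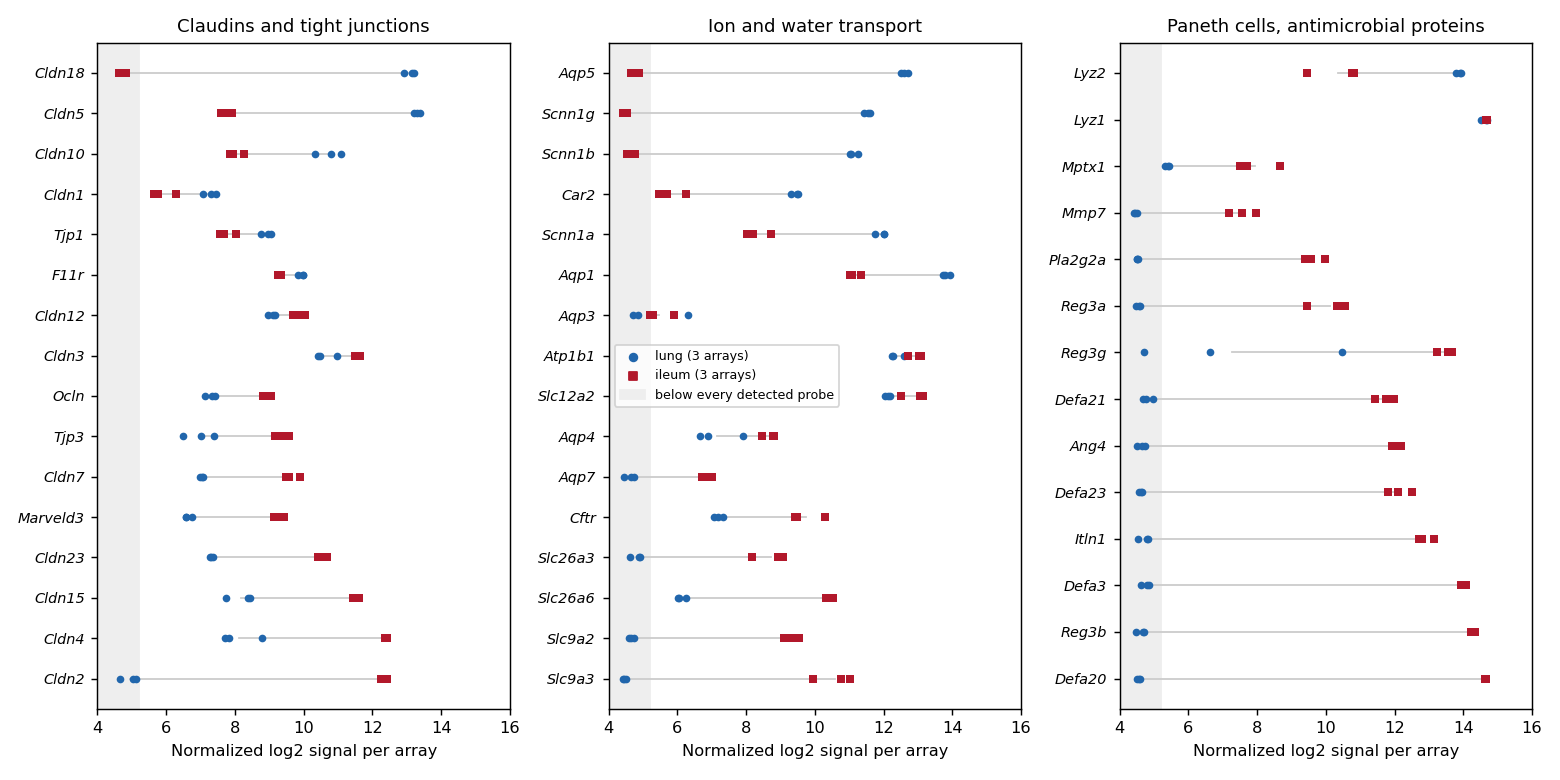
Normalized log2 intensity (horizontal axis) of junction, transport and antimicrobial genes (rows) on the 3 lung arrays (blue) and 3 ileum arrays (red), with a grey line between the means and shading below every detected probe. Cldn18, Scnn1g and Scnn1b are above detection in lung only, Cldn2 and Slc9a3 in ileum only, and Lyz1 lies near the top of the scale in both organs.

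Lipid carriers and detoxifying enzymes used different family members. Of 6 fatty acid and retinoid binding genes tested, Fabp3 (3.94 ± 0.21), the 1 detected on all 6 arrays, Fabp5 (at least 3.27-fold) and Crabp1 (at least 2.71-fold) were higher in lung, and Fabp6, Rbp2, the retinol carrier of enterocytes (at least 76.6-fold), and Rbp7 (at least 3.64-fold) in ileum. Fabp1, Fabp2 and Fabp4 did not pass the detection filter, so their levels in these organs were not measured here. All 31 P450 and conjugation genes tested were called, 13 higher in lung and 18 in ileum, whereas of the 17 detected on all 6 arrays 9 were higher in lung and 8 in ileum (median 0.75). Beside Cyp2f2, lung had higher Cyp4b1 (at least 30.9-fold), Cyp2b10 (at least 11.5-fold), Cyp2e1 (at least 11.1-fold), the flavin monooxygenase Fmo1 (5.87 ± 0.14) and the carboxylesterase Ces1d (6.40 ± 0.14). Ileum had higher Cyp3a13, at 12.53, 12.57 and 12.15 against 5.91, 5.73 and 6.23 in lung (88.0-fold), Cyp4f14 (at least 62.4-fold), Cyp2c65 (at least 15.2-fold) and the glucuronosyltransferases Ugt2b36 and Ugt2b34 (at least 29.2-fold and 16.5-fold). Ugt1a6a depended on the probe, with -2.10 on the brightest and 1.34 and 1.2 on the others. Genes of the Ugt1a locus share exons, and its direction is uncertain.

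Immune cell genes mostly differed less than epithelial genes. Of 14 macrophage genes tested 6 were higher in lung, 1 in ileum and 7 in neither, and of the 11 detected on all 6 arrays 4, 1 and 6 (median -0.05). The complement genes C1qa, C1qb and C1qc and the receptor Csf1r were not called, with Csf1r at 9.53, 9.72 and 9.48 in lung and 9.57, 9.65 and 9.72 in ileum, a difference of -0.07 ± 0.13 (adjusted p = 0.661). Genes of lipid-handling alveolar macrophages were higher in lung, with the cholesterol exporter Abcg1 at 8.41, 8.93 and 8.53 against 5.44, 5.91 and 5.96 (2.85 ± 0.19) and the scavenger receptor Marco, which 1 ileum array detected, at least 1.87-fold higher. Chil3, whose lung values varied between arrays as given above, was at least 54.1-fold higher in lung, and 1 ileum array detected it. Pparg, a factor of alveolar macrophages and of fat and gut epithelium, was higher in ileum (-1.14 ± 0.15). Of 7 T cell genes, all detected on all 6 arrays, 5 were higher in lung and 1 in ileum, with Cd3e at 1.06 ± 0.20 and Cd3g not called (0.16 ± 0.17, adjusted p = 0.456). Cd8b1 was higher in ileum on its brightest probe (-1.06 ± 0.15) and on its other probes gave 0.71 and 1.46, so its direction is uncertain. Of 6 B cell genes 4 were higher in lung, 3 of them among the 5 detected on all 6 arrays, with the receptor chain Cd79b at 10.03, 10.01 and 9.94 against 8.17, 8.18 and 8.84 (1.60 ± 0.19), whereas the plasma cell gene Mzb1 overlapped, at 8.12, 8.54 and 8.43 in lung and 7.90, 8.89 and 9.81 in ileum. Of 8 neutrophil genes 5 were higher in lung and 1 in ileum, and of the 6 detected on all 6 arrays 3 and 1. The calprotectin subunit S100a8 read 11.45, 12.91 and 11.78 in lung and 9.44, 8.57 and 8.54 in ileum (3.20 ± 0.38), with its partner S100a9 at 3.54 ± 0.47, and both were highest on lung replicate 2. Retnlg, a resistin-like protein of neutrophils and gut, was higher in ileum (-1.99 ± 0.32). Of 10 MHC class II genes, all detected on all 6 arrays, 6 were higher in lung with a list median of 0.53. Without lung replicate 2, with detection on at least 2 arrays, 4 were called. The call of H2-Aa was lost in 13 of 23 alternatives. Cd74, the invariant chain, read 13.52, 13.81 and 13.63 in lung and 11.80, 12.61 and 12.92 in ileum (1.21 ± 0.26). H2-Ab1 was not called (0.46 ± 0.18, adjusted p = 0.0505), though 9 of 23 alternatives called it. For all 10 genes the lowest ileum value was on replicate 1.

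Genes often used to scale expression between tissues were not all alike. Of 13 tested, all detected on all 6 arrays, 2 were higher in lung, 6 in ileum and 5 in neither, with a median of -0.16. Gapdh read 11.51, 11.56 and 11.58 in lung and 12.30, 12.31 and 12.52 in ileum (-0.83 ± 0.13, adjusted p = 0.000389), Hprt differed by -0.91 ± 0.13, Pgk1 by -0.97 ± 0.14 and Gusb by -1.35 ± 0.14. Actb read 13.93, 13.87 and 13.88 in lung and 13.54, 13.51 and 13.60 in ileum (0.34 ± 0.12, adjusted p = 0.0307), a difference that fell to -0.01 when arrays were scaled by their 75th percentile. Tbp (-0.16 ± 0.14, adjusted p = 0.33), Ppia (-0.08 ± 0.12, adjusted p = 0.59) and B2m (0.01 ± 0.14, adjusted p = 0.967) were not called. Quantile normalization gives every array the same distribution, so a shift common to all genes of an organ would not be seen.

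Markers of tissues that could lie beside or within the pieces taken were read in the same way, with at most 1 gene of each list detected on all 6 arrays. Of 6 striated muscle genes tested 5 were higher in lung, with a list mean of 7.98 to 9.74 on lung and 5.39 to 5.54 on ileum arrays. The cardiac actin Actc1 read 11.05, 10.09 and 11.24 in lung and 4.79, 5.02 and 5.50 in ileum, where 1 array detected it, at least 43.7-fold higher in lung, and myoglobin (Mb) 9.26, 7.61 and 9.26 in lung, at least 10.7-fold higher. The skeletal muscle creatine kinase Ckm was higher in ileum (-0.97 ± 0.24), a call that an ordinary linear model lost, and the skeletal genes Acta1, Myh1 and Myh4 and the atrial hormone gene Nppa did not pass the detection filter. The 3 adipose genes tested were higher in ileum, with a list mean of 7.93 to 8.24 on ileum and 4.97 to 6.22 on lung arrays. Adiponectin (Adipoq) read 8.70, 8.63 and 7.91 in ileum and 4.49, 4.58 and 7.17 in lung, where replicate 3 alone was above detection. Of the liver genes, albumin (Alb), fibrinogen (Fgb), Ahsg and Apoh did not pass the filter. The 3 liver genes tested were all higher in ileum and detected on no lung array, with a median of -4.97. The urea cycle enzyme Cps1, which enterocytes also make, read 12.12, 12.32 and 12.35 in ileum, at least 131-fold higher. Over the alternatives the log2 difference ran from -5.4 to -2.97 for Ttr. For Serpina1a it ran from -0.85 to -0.23, and 2 of 19 alternatives lost its call. Of pancreas and thymus genes, the acinar and thymocyte markers did not pass apart from Amy2a5 (1.08 ± 0.22, higher in lung), Cd1d1 (1.01 ± 0.17) and Rag1 (0.38 ± 0.23, adjusted p = 0.181). The Y-linked genes Eif2s3y, Kdm5d and Uty were detected on 6 of 6 arrays and the 4 Xist probes on 0 of 6. The part of muscle, fat and liver in the differences of the lists above was not tested.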

How the data were processed

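The data are Illumina MouseWG-6 v2.0 bead arrays. The authors hybridised biotin-labelled RNA and exported probe values with GenomeStudio 2011.1. The deposited intensity values are average bead signals, neither background-subtracted nor normalized, and each comes with a deposited detection p-value that compares the probe with negative control beads. The authors also deposited background-subtracted, quantile-normalized intensities on a linear scale, which served here only as an alternative. The sources used here name no genome build for the probes. The 18 columns of the hyperoxia arrays were not used.

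The 6 normoxia arrays were corrected for background with normexp, with the mean and spread of the negative controls inferred from the detection p-values, given an offset of 16, quantile normalized and put on a log2 scale (neqc in limma 3.58.1, R 4.3.3). Probes with a detection p under 0.05 on 3 or more of the 6 arrays entered the tests. Symbols came from the platform annotation, updated through gene identifiers to RefSeq: 34885 probes had 1 symbol, 18 several and 10378 none, and the 1-symbol probes covered 19057 genes. The brightest tested probe stood for its gene. The 4309 genes with several tested probes were also averaged over probes as an alternative. Lung was compared with ileum by limma with moderated variance, and p-values were adjusted by Benjamini-Hochberg over the 11622 genes tested. Differences are lung minus ileum with their standard error from the moderated variance (SE, n = 3 arrays per organ). The arrays leave 4 residual degrees of freedom, and the moderation adds to these for the p-values and 95% intervals. An exact permutation test of 3 against 3 arrays cannot give a p below 0.1 and was not run for single genes. The number of arrays limits the precision. The median standard deviation between arrays was 0.144 in lung and 0.179 in ileum on the log2 scale.

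The tissue characteristic, not the source name, set the groups. Named genes were the 20 with the largest difference in each direction and members of gene lists. The members and lists were chosen with earlier results of these data known, so list counts are descriptions. Motif letters and the genes that vary between lung arrays were chosen after values had been seen. Alternatives changed the background correction, scaling, detection filter, probe rule, variance model and arrays included. The test was checked on simulated data. Plots were made in Python 3.11.15 with matplotlib 3.10.9.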

Additional observations from a re-analysis of the deposited data

How the results depend on the processing

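The count of called genes was 7412 of 11622 and ranged from 5853 to 7935 over settings that kept all 6 arrays. The lowest, with detection required on all 6 arrays, was out of 9250 genes tested. With probes in place of genes, 10669 of 17778 probes were called. Fold sizes depended more on the processing. Without background correction 2565 genes reached 2-fold and 175 reached 16-fold, against 3974 and 399. With detection required on all 6 arrays, 104 genes reached 16-fold, of which 51.9% were higher in lung, against 33.1% of the 399, since genes seen in one organ only are then left out. Scaling by the 75th percentile gave 7394 called, 49.2% of them higher in lung against 52.2%. Leaving out 1 array under the same filter of 3 arrays gave 6129 to 6647 called genes, 3493 to 3660 at 2-fold and 224 to 347 at 16-fold. The lowest of these, 229, 227 and 224, came without an ileum array, where a gene seen only in ileum cannot pass. The share of 16-fold genes higher in lung was then 57.6% to 58.1% without an ileum array and 19.8% to 21.1% without a lung array. With detection on at least 2 arrays, a setting chosen after seeing these values, the ranges were 6788 to 7344, 3992 to 4051 and 393 to 403, with 31.8% to 34.9% of the last higher in lung. Of 452 called genes that were named or listed, 415 kept direction and call in every alternative run. The call was lost at least once for 35, of which 33 never changed sign, and 4 called genes changed sign. Among uncalled genes 13 became called. Of these, Eef1a1 and Lyz1 were called with the opposite sign under cyclic loess, at 0.42 and 0.35. The 4 called genes that changed sign were Actb at -0.01 with 75th percentile scaling, Cd8b1 at 0.37 and Ugt1a6a at 0.15 with the mean of all probes, and Nr1i3, whose difference of -3.04 was -3.09 at its lowest with 1 array left out, at 0.08 without ileum replicate 2. The cause was not tested. The median of all genes was 0.031 and ranged from -0.026 to 0.094. It is not stated whether lung and ileum arrays of one number come from one pup. Same-numbered arrays correlated in their deviations from the organ means at 0.057, 0.045 and 0.112. Arrays of different numbers correlated at -0.087 to 0.03, all lower than the same-numbered ones. Whether the numbers stand for pups was not tested. With the replicate number as a block 7417, 3974 and 399 genes were called, and Actb, Col4a6, H2-Aa and Hbb-bt lost their call while Clic5, H2-Ab1, Pcna and Eif2s3y gained one. Probes near the top of the scale (globins, Lyz1, Ppia) and probes at detection have compressed differences.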
